A study of Mus musculus with 2 samples.

Results

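The 6 genes described here encode receptors by which phagocytes sense formylated peptides and antibody-coated targets. They are the formyl peptide receptor genes Fpr1 and Fpr2 and the Fc gamma receptor genes Fcgr1, Fcgr2b, Fcgr3 and Fcgr4. They were chosen by symbol, and all 6 were found once among the 31053 genes of both libraries. Values are UMI counts (distinct captured transcripts). A barcode was kept as a cell where it had 500 or more UMIs, 200 or more genes and no more than 10% of its UMIs from mitochondrial genes.

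Cells came from C57BL/6 mice whose eyes had been injected with zymosan, a yeast cell wall preparation that draws neutrophils into the eye. The aCXCR2 library was from mice treated with the antiserum that the labels call aCXCR2, and the NRS library from mice treated with the one they call NRS. CXCR2 is a chemokine receptor of neutrophils, and the labels do not spell out NRS. In both groups, vitreous cells pooled with those rinsed off the retina were enriched with Ly6G beads and sequenced with the 10x Chromium 3' kit. Ly6G is a neutrophil surface antigen. The sources used here give neither the age of the mice nor the number of animals behind each library. Each group was 1 library, so no test between the groups was possible, no p-value is given, and differences between animals cannot be told apart from the treatment. All intervals are 95% intervals for counting error only.

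Formyl peptide receptors are G protein-coupled receptors that recognise peptides starting with formylmethionine, released by bacteria and by damaged mitochondria, and they direct neutrophils towards them. In the mouse, Fpr1 is a main receptor for such peptides, and Fpr2 also binds host ligands such as annexin A1, cathelicidin and serum amyloid A. Fc gamma receptors bind IgG. Fcgr1 is the high-affinity receptor, Fcgr3 and Fcgr4 are activating receptors of lower affinity, and all of these signal through the shared gamma chain encoded by Fcer1g, whereas Fcgr2b carries an inhibitory motif and counters them.

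Fpr1 (ENSMUSG00000045551, chr17:17876471-17883940) and Fpr2 (ENSMUSG00000052270, chr17:17887824-17893952) point away from each other, with 3883 bases between their 5' ends. Fcgr2b (ENSMUSG00000026656, chr1:170958617-170976547), Fcgr4 (ENSMUSG00000059089, chr1:171018920-171029761) and Fcgr3 (ENSMUSG00000059498, chr1:171051174-171064935) lie within 106319 bases. Fcgr1 (ENSMUSG00000015947) is on another chromosome, at chr3:96282909-96293969. These are whole-gene positions in GENCODE M21 on GRCm38, which may not be the build the authors counted on. The receptors are related in sequence, so the last 500 bases of their coding transcripts were searched for 98-base stretches, the length of the transcript read, that other annotated genes also hold. None was found for any of the 6 genes, with between 403 and 1371 stretches searched per gene.

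The 250 bases before the annotated start are shown for 4 genes, chosen with their values known: the divergent pair Fpr1 and Fpr2, whose levels ran most closely together, Fcgr1, which was nearly restricted to mononuclear phagocyte-like cells, and Fcgr4, which had the highest class-level ratio between the libraries among the well-measured receptors of neutrophil-like cells. Sequences are from RefSeq on GRCm38.p6, at chr17:17883940-17884189 (minus strand), chr17:17887574-17887823 (plus strand), chr3:96293970-96294219 (minus strand) and chr1:171018676-171018925 (plus strand). Capitals mark matches to the interferon-gamma-activated site TTCNNNGAA or to GAGGAA, a core bound by PU.1, on either strand.
Fpr1: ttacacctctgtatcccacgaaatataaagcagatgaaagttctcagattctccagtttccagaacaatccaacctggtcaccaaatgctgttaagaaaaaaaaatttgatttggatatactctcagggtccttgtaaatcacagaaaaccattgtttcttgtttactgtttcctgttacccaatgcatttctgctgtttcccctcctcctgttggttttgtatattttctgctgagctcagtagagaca
Fpr2: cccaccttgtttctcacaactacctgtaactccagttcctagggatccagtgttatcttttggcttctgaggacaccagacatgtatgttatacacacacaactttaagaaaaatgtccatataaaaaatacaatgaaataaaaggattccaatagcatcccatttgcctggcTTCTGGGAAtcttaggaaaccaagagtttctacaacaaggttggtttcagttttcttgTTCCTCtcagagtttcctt
Fcgr1: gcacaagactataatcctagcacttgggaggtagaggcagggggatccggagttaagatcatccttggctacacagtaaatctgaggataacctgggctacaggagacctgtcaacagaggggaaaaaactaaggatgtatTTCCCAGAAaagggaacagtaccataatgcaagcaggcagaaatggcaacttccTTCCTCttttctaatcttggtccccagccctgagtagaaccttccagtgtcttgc
Fcgr4: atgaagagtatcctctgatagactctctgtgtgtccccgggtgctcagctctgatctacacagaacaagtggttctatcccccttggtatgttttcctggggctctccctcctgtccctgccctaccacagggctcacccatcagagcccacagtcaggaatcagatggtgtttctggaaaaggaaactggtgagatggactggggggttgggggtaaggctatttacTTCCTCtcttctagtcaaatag
TTCNNNGAA was present before Fpr2 and Fcgr1, as it was in 7.18% of 27025 windows of this length. GAGGAA, always on the strand opposite to the gene, was present before Fpr2, Fcgr1 and Fcgr4, in the Fcgr3 window and in 23.1% of all windows. The pattern TTGCNNAA, which resembles a C/EBP site, was present in the Fcgr3 window and in 9.55% of all windows. That Fcgr3 window, chr1:171059404-171059653, lies inside the GENCODE span of the gene and not before it. The Fcgr2b window, which had no match, also lies inside its gene, with 187 of its 250 bases in exons. Matches of 2 patterns did not overlap in the 4 windows shown. These are matches of letters and were not tested as binding sites.

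After filtering, 4826 aCXCR2 cells and 5655 NRS cells remained, with medians of 10383.5 and 4759 UMIs, and 53 barcode sequences occurred in both libraries. Clustering without the 6 genes gave 17 clusters, of which 8 were neutrophil-like, 4 mononuclear phagocyte-like (monocytes, macrophages and dendritic cells as a single class) and 1 photoreceptor-like, while 4 stayed unnamed. Neutrophil-like cells numbered 2664 in aCXCR2 and 3727 in NRS, with 15 of 15 neutrophil markers at 10 CPM or more in both. CPM are UMIs scaled so that those of all genes in a class sum to 1000000. Of the 8 clusters, cluster 0, with 1508 NRS cells, had the lowest neutrophil marker score, 0.28 where 0.2 was required. None of its leading genes was a neutrophil marker. With variable genes scaled before clustering, 2035 NRS cells were neutrophil-like and 2243 unnamed, against 2500 and 326 in aCXCR2. The beads had not removed other cells: mononuclear phagocyte-like cells numbered 1793 in aCXCR2 and 623 in NRS. Photoreceptor-like cells, which should lack these receptors and so show the level of free RNA, numbered 159 in aCXCR2 and 575 in NRS. The libraries filled the classes from different clusters. Clusters 1, 5 and 7 held 79.8% of aCXCR2 and 4.80% of NRS neutrophil-like cells, and clusters 0, 2, 8 and 9 held 10.8% and 91.7%. Clusters 3 and 6 held 76.6% of aCXCR2 and 33.2% of NRS mononuclear phagocyte-like cells, with clusters 10 and 14 holding the rest.

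By CPM over whole classes, the receptors divided between the classes by type. Formyl peptide receptor transcripts had the highest CPM in neutrophil-like cells. Fcgr1 and Fcgr2b had theirs in mononuclear phagocyte-like cells, and Fcgr3 and Fcgr4 were shared. UMIs per cell, given below, ran the other way for the formyl peptide receptors, except for Fpr1 in aCXCR2. The level of Fpr1 in neutrophil-like cells was 359% of that in mononuclear phagocyte-like cells in aCXCR2 and 315% in NRS, and for Fpr2 these were 274% and 301%. For Fcgr1 the same quantity was 4.26% in aCXCR2 and 2.40% in NRS, and for Fcgr2b it was 13.5% and 13.7%. For Fcgr3 it was 64.3% in aCXCR2 and 43.9% in NRS, and for Fcgr4 89.3% and 70.5%. In photoreceptor-like cells no receptor exceeded 18.8 CPM in aCXCR2 or 5.27 CPM in NRS. Single clusters crossed the class order of the formyl peptide receptors. Mononuclear phagocyte-like cluster 10 had 343 CPM of Fpr1 in aCXCR2 and 264 in NRS, above neutrophil-like cluster 0 with 152 and 149. Fcgr3 in neutrophil-like cluster 9 ranked 2 among named clusters with at least 50 cells, in both libraries. Fcgr1 and Fcgr2b did not cross in such clusters. These differences between classes describe how the clusters differ and were not tested.

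**Figure D1:**
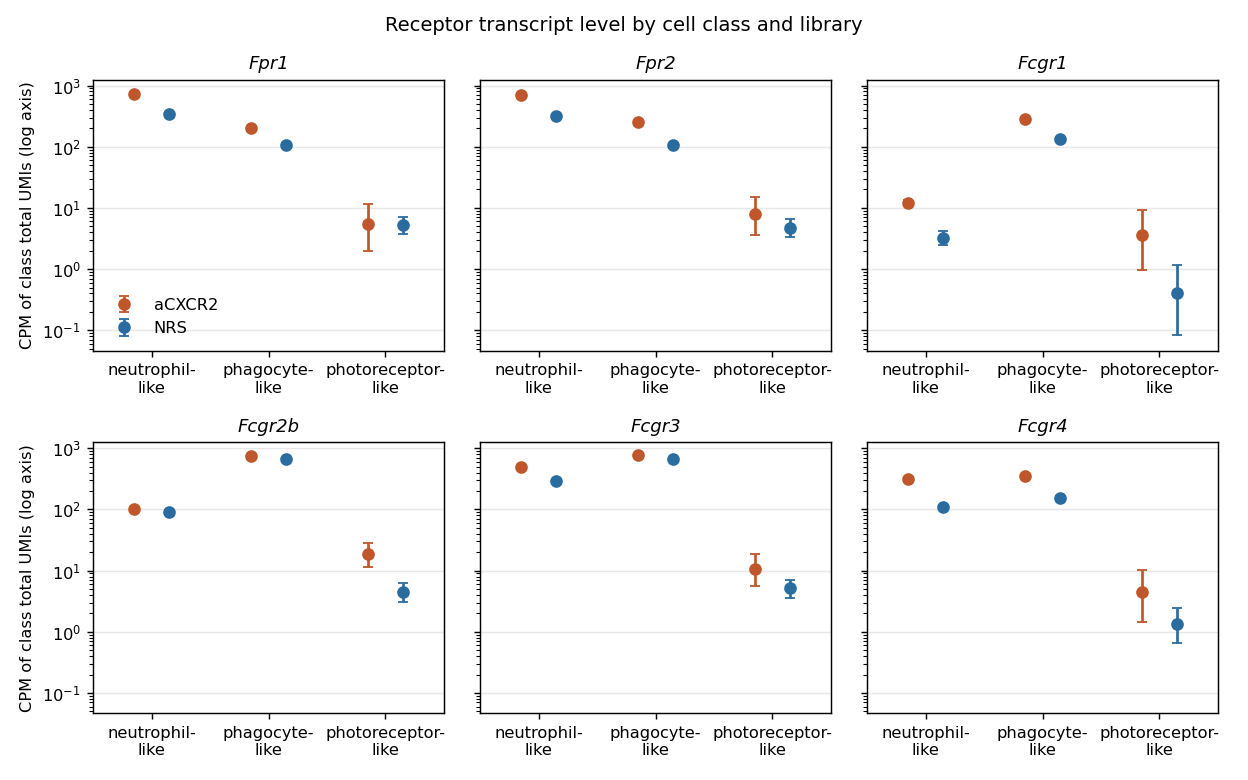
Transcript level of each receptor (CPM of the class's total UMIs, log axis) in neutrophil-like, mononuclear phagocyte-like (axis label phagocyte-like) and photoreceptor-like cells, with aCXCR2 left of NRS; bars are exact Poisson intervals, which are smaller than most points. Fpr1 and Fpr2 are highest in neutrophil-like cells, Fcgr1 and Fcgr2b in mononuclear phagocyte-like cells, and all 6 are lowest of the 3 classes in photoreceptor-like cells.

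In neutrophil-like cells both formyl peptide receptors had about 2-fold higher CPM in the aCXCR2 library. Fpr1 stood at 726 CPM in aCXCR2 (interval 715 to 737) and 341 CPM in NRS (332 to 349), a log2 ratio of 1.09 (1.05 to 1.13). Fpr2 stood at 688 CPM in aCXCR2 and 316 CPM in NRS, a log2 ratio of 1.12 (1.08 to 1.17). The counting intervals of the libraries did not overlap for either gene, and the share of all genes for which this holds was not computed. After each cell was thinned to 1000 UMIs, 43.7% of aCXCR2 and 22.8% of NRS cells had an Fpr1 UMI, and 42.4% and 23.9% had an Fpr2 UMI. Thinning left out 47 aCXCR2 and 224 NRS cells that were too shallow. Without thinning the Fpr1 shares were 83.9% in aCXCR2 and 46.6% in NRS, at median depths of 7649.5 and 4566 UMIs. In photoreceptor-like cells, with medians of 5176 and 5058 UMIs, the thinned Fpr1 shares were 0.685% in aCXCR2 and 0.179% in NRS.

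Within clusters the difference was smaller. In the 6 neutrophil-like clusters that had at least 50 cells in each library, the log2 ratio of Fpr1 ran from -0.58 to 0.70 with a median of 0.12, and that of Fpr2 ran from -0.37 to 0.66 with a median of 0.02. In cluster 0, led by Itpr2 and the stress cytokine gene Gdf15, Fpr1 had 152 CPM in aCXCR2 and 149 CPM in NRS. This cluster held 1508 of the NRS cells and 112 of the aCXCR2 cells, and had the lowest Fpr1 and Fpr2 levels of the neutrophil-like clusters with at least 50 cells, in both libraries. At the other end, cluster 7, led by Stfa2 and G0s2, had 894 CPM of Fpr1 and held 628 aCXCR2 cells but 6 NRS cells. Cluster 2, led by Stap1 and Pmaip1, went the other way, with 285 CPM of Fpr1 in aCXCR2 and 426 CPM in NRS. An equal cluster mix gave the 6 shared clusters the same weights in both libraries, each by its cells in both together. It leaves out clusters 5 and 7, which held 25.4% and 23.6% of aCXCR2 neutrophil-like cells. With this mix the class ratio was 0.09 for Fpr1 and 0.16 for Fpr2. Without cluster 0 instead, it was 0.63 and 0.68. The 15 neutrophil markers summed to 179095 CPM in aCXCR2 and 43829 CPM in NRS neutrophil-like cells, and their part in these ratios was not tested.

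Over the whole neutrophil-like class, the proportion of Fpr2 to Fpr1 was nearly the same in both libraries. Fpr2 made up 48.7% of their joint UMIs in aCXCR2 (interval 48.1 to 49.2%) and 48.1% in NRS (47.2 to 49.0%), and these intervals overlapped. Within clusters it differed in both directions, with intervals that did not overlap in 3 of the 6: the share was 51.6% in aCXCR2 and 43.2% in NRS in cluster 1, 44.4% and 56.7% in cluster 9, and 38.0% and 46.7% in cluster 12. Among mononuclear phagocyte-like cells the share was 55.4% in aCXCR2 and 49.3% in NRS. Both genes had lower CPM there than in neutrophil-like cells. Fpr1 had 202 CPM in aCXCR2 and 108 CPM in NRS (log2 ratio 0.90, interval 0.83 to 0.98), and Fpr2 had 251 CPM in aCXCR2 and 105 CPM in NRS (log2 ratio 1.26, 1.19 to 1.33). The level varied widely between the 4 clusters of this class. Cluster 10, led by the elastase gene Mmp12, had 343 CPM of Fpr1 in aCXCR2 and 264 CPM in NRS. Cluster 14, led by Spp1 and Gpnmb, had 51.7 CPM of Fpr1 in aCXCR2 and 43.2 CPM in NRS. Fpr1 was higher in aCXCR2 in each of the 4 clusters, with a median log2 ratio of 0.51. Fpr2 was higher in 3 of them and had 26.8 CPM in aCXCR2 and 30.5 CPM in NRS in cluster 14, where the interval included equality. Without cluster 14 the class ratio of Fpr1 was 0.39 and that of Fpr2 0.68, and without cluster 10 they were 1.48 and 2.01. Neutrophil markers summed to 5002 CPM in aCXCR2 and 2709 CPM in NRS cells of this class, with 13 and 10 of 15 at 10 CPM or more and none at 0, and their part in the result was not tested.

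**Figure D2:**
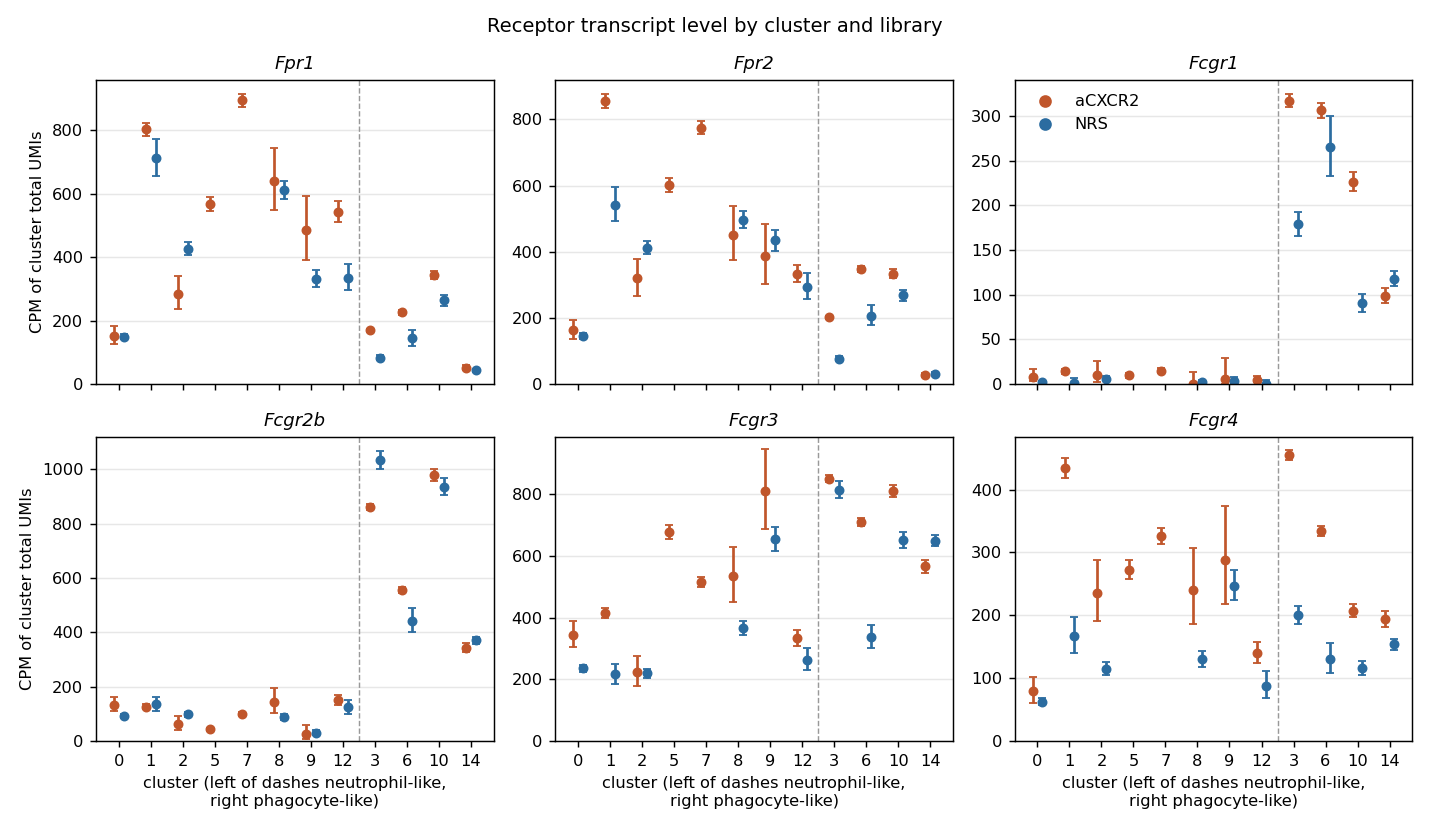
Transcript level of each receptor (CPM of the cluster's total UMIs) in each neutrophil-like cluster (left of the dashes) and mononuclear phagocyte-like cluster (right, phagocyte-like on the axis) with at least 50 cells in that library, aCXCR2 left of NRS; bars are exact Poisson intervals. Fpr1 and Fpr2 are lowest among neutrophil-like clusters in cluster 0, while Fcgr1 and Fcgr2b are higher to the right of the dashes. Fcgr4 is higher in aCXCR2 in every cluster shown for both libraries.

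Fcgr4 was higher in aCXCR2 in both classes and in every cluster of theirs with at least 50 cells in each library. In neutrophil-like cells it stood at 319 CPM in aCXCR2 (interval 312 to 327) and 110 CPM in NRS (105 to 115), 2.90-fold higher (log2 ratio 1.54, 1.47 to 1.61). The mononuclear phagocyte-like class had 358 CPM in aCXCR2 and 156 CPM in NRS, 2.29-fold higher (log2 ratio 1.20, 1.14 to 1.26). Its level was higher in aCXCR2 in each of 6 neutrophil-like and each of 4 mononuclear phagocyte-like clusters, and the interval lay above equality in 4 of the 6 and all 4. The median log2 ratio within clusters was 0.78 in the neutrophil-like class and 1.01 in the other. The largest neutrophil-like difference was in cluster 1, led by the granule genes Pglyrp1 and Mmp8, with 435 CPM in aCXCR2 and 167 CPM in NRS. Cluster 9, led by Fgl2 and Il1r2, had the smallest, with 288 CPM in aCXCR2 and 247 CPM in NRS, and its interval included equality. Clusters 5 and 7 had too few NRS cells to be compared, 21 and 6. Cluster 5 had 273 CPM in aCXCR2 and 359 CPM in NRS, with overlapping intervals, and cluster 7 had 326 and 33.1 CPM. With equal cluster mix the class ratio was 0.87 in neutrophil-like and 1.08 in mononuclear phagocyte-like cells. After thinning, 23.5% of aCXCR2 and 9.36% of NRS neutrophil-like cells had an Fcgr4 UMI, against 68.2% and 31.6% without thinning. In photoreceptor-like cells the thinned shares were 0.685% in aCXCR2 and 0.358% in NRS.

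Fcgr3 differed less. Neutrophil-like cells had 498 CPM in aCXCR2 (interval 489 to 507) and 295 CPM in NRS (287 to 303), a log2 ratio of 0.75. Within clusters the ratio ran from 0.02 to 0.93, higher in aCXCR2 in each of 6 clusters and with the interval above equality in 5. Among neutrophil-like clusters with at least 50 cells in a library its level was highest in cluster 9 in both, at 808 CPM in aCXCR2 and 653 CPM in NRS. Mononuclear phagocyte-like cells had 774 CPM in aCXCR2 and 672 CPM in NRS, a log2 ratio of 0.20 (0.17 to 0.23). There cluster 6, led by Ccr2, Vcan and MHC class II genes, stood apart with 708 CPM in aCXCR2 and 336 CPM in NRS, from 623 and 55 cells. Cluster 14 was lower in aCXCR2, at 566 CPM against 648 CPM in NRS.

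Fcgr2b, the inhibitory receptor, differed by little between the libraries within each class, whereas over all kept cells it had 529 CPM in aCXCR2 and 269 CPM in NRS (log2 ratio 0.97). Neutrophil-like cells had 99.8 CPM in aCXCR2 and 91.4 CPM in NRS (log2 ratio 0.13, interval 0.04 to 0.22). Mononuclear phagocyte-like cells had 739 CPM in aCXCR2 and 668 CPM in NRS (log2 ratio 0.15, 0.11 to 0.18). The sign was not steady within clusters: Fcgr2b was higher in aCXCR2 in 3 of 6 neutrophil-like and 2 of 4 mononuclear phagocyte-like clusters. It had 862 CPM in aCXCR2 and 1033 CPM in NRS in cluster 3, led by Ccl8, Mrc1 and C1qa, whereas in cluster 6 it had 555 CPM in aCXCR2 and 443 CPM in NRS. Within neutrophil-like cells Fcgr2b was low in cluster 9, where Cxcr2 was among the leading genes, with 25.7 CPM in aCXCR2 and 31.7 CPM in NRS, from 5 and 54 UMIs. Cluster 5, led by Retnlg, Ngp and Ly6g, had 44.2 CPM in aCXCR2, within the aCXCR2 interval of cluster 9, and 0 Fcgr2b UMIs in its 21 NRS cells, where the interval reached 45.6 CPM. The class ratio depended on the setting: it was 0.83 with TMM factors in neutrophil-like cells, and -0.01 there without cluster 1. For mononuclear phagocyte-like cells it was -0.26 without cluster 14 and -0.05 with equal cluster mix.

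Fcgr1 was a mononuclear phagocyte-like transcript: these cells held 98.0% of its UMIs in aCXCR2 and 96.1% in NRS. They had 281 CPM in aCXCR2 (interval 277 to 286) and 136 CPM in NRS (130 to 142), a log2 ratio of 1.05 (0.98 to 1.11). The ratio differed between clusters, from 1.32 in cluster 10, where aCXCR2 had 227 CPM and NRS 90.7 CPM, to -0.26 in cluster 14, where aCXCR2 had 98.7 CPM and NRS 118 CPM. In neutrophil-like cells Fcgr1 had 12.0 CPM in aCXCR2 (10.6 to 13.5) and 3.25 CPM in NRS (2.48 to 4.20), from 282 and 59 UMIs. After thinning, 1.26% of aCXCR2 and 0.314% of NRS neutrophil-like cells had an Fcgr1 UMI. The photoreceptor-like shares were 0.685% in aCXCR2 and 0.179% in NRS, and their intervals overlapped those of neutrophil-like cells, so no share above background was detectable at this depth. The photoreceptor-like levels were 3.57 CPM in aCXCR2 (0.974 to 9.15) and 0.406 CPM in NRS (0.0836 to 1.19), below the neutrophil-like intervals. The complement genes C1qa, C1qb and C1qc, which are macrophage markers, stood in neutrophil-like cells at 1.31% of their mononuclear phagocyte-like level in aCXCR2 and 0.785% in NRS. Summed mononuclear phagocyte markers stood there at 948 CPM in aCXCR2 and 1116 CPM in NRS, with 13 and 12 of 24 markers at 10 CPM or more. Cd209a and Flt3 were at 0 in aCXCR2 and Cd209a in NRS. Photoreceptor markers, by contrast, summed to 107 CPM in aCXCR2 and 1056 CPM in NRS neutrophil-like cells. The part of free RNA and doublets in the neutrophil-like levels was not tested.

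**Figure D3:**
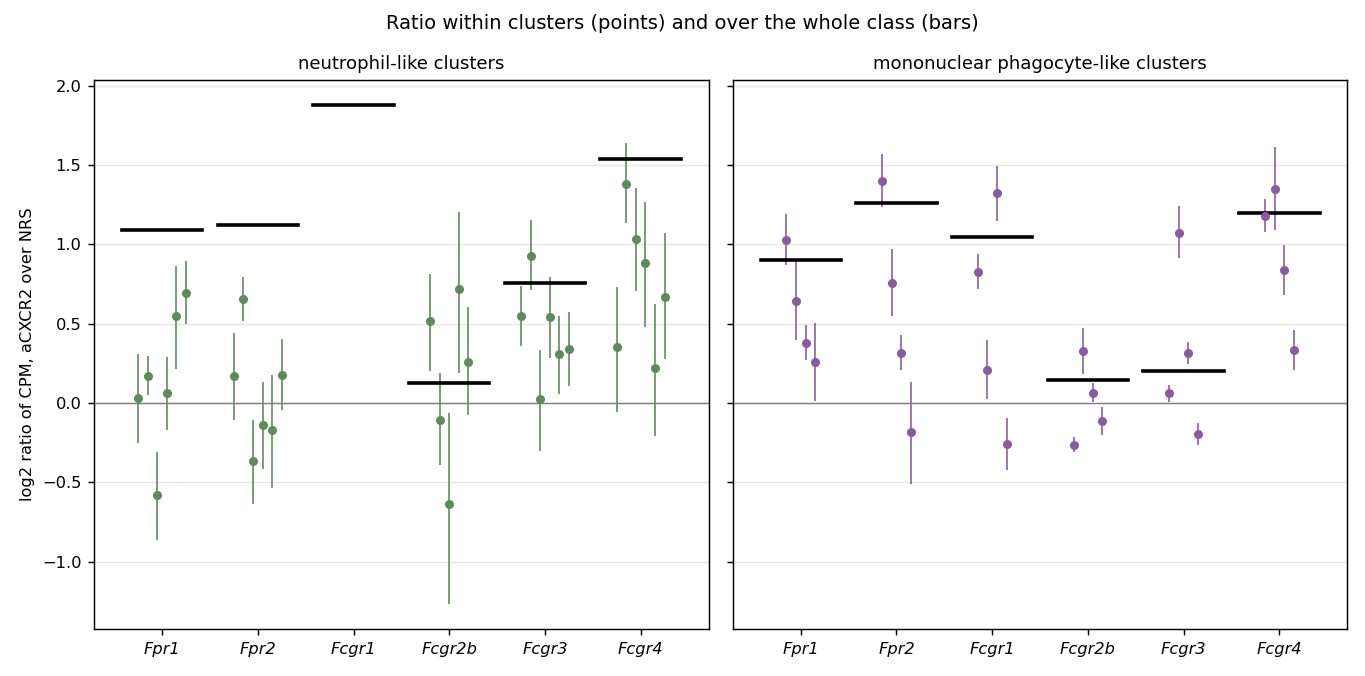
Log2 ratio of CPM, aCXCR2 over NRS, within each cluster that had at least 50 cells and at least 10 UMIs of the gene in each library (points, with exact conditional intervals, clusters in numerical order from left to right) and over the whole class (black bars). The points of Fpr1 and Fpr2 in neutrophil-like clusters lie below the class bars and around 0, those of Fcgr4 lie above 0 in both classes, and Fcgr1 has no neutrophil-like cluster with enough UMIs.

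Fcgr2b made up a smaller share of Fc gamma receptor transcripts in aCXCR2 than in NRS, in both classes. This quantity is a share within a library and does not depend on scaling between libraries. In neutrophil-like cells Fcgr2b gave 10.7% of the UMIs of the 4 receptors in aCXCR2 (interval 10.3 to 11.2%) and 18.3% in NRS (17.5 to 19.1%), while Fcgr4 gave 34.4% and 22.0%. Fcgr3 was the most abundant receptor in both, with 53.6% in aCXCR2 and 59.0% in NRS. Across mononuclear phagocyte-like cells Fcgr2b gave 34.3% in aCXCR2 and 40.9% in NRS, Fcgr4 gave 16.6% and 9.56%, and Fcgr1 gave 13.1% and 8.33%. Activating UMIs outnumbered those of Fcgr2b by 8.31 in aCXCR2 and 4.47 in NRS neutrophil-like cells, and by 1.91 and 1.44 in mononuclear phagocyte-like cells.

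The make-up ranged widely between clusters. In cluster 0 the Fcgr2b share was 23.7% in aCXCR2 and 23.8% in NRS, and in cluster 9 it was 2.28% and 3.39%. Among neutrophil-like clusters the libraries differed most in clusters 1 and 2, with 12.8% in aCXCR2 and 26.2% in NRS in cluster 1, and 12.0% and 22.5% in cluster 2. The Fcgr4 share in cluster 2 was 44.2% in aCXCR2 and 26.1% in NRS, from 217 and 1803 UMIs of the 4 receptors. With equal cluster mix, which leaves out clusters 5 and 7, the neutrophil-like Fcgr2b share was 14.9% in aCXCR2 and 19.2% in NRS. In the mononuclear phagocyte-like clusters 3, 6 and 10 the Fcgr2b share was lower in aCXCR2, at 34.7%, 29.2% and 44.1%, than in NRS, at 46.4%, 37.7% and 52.2%. In cluster 14 it was 28.5% in aCXCR2 and 28.7% in NRS.

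**Figure D4:**
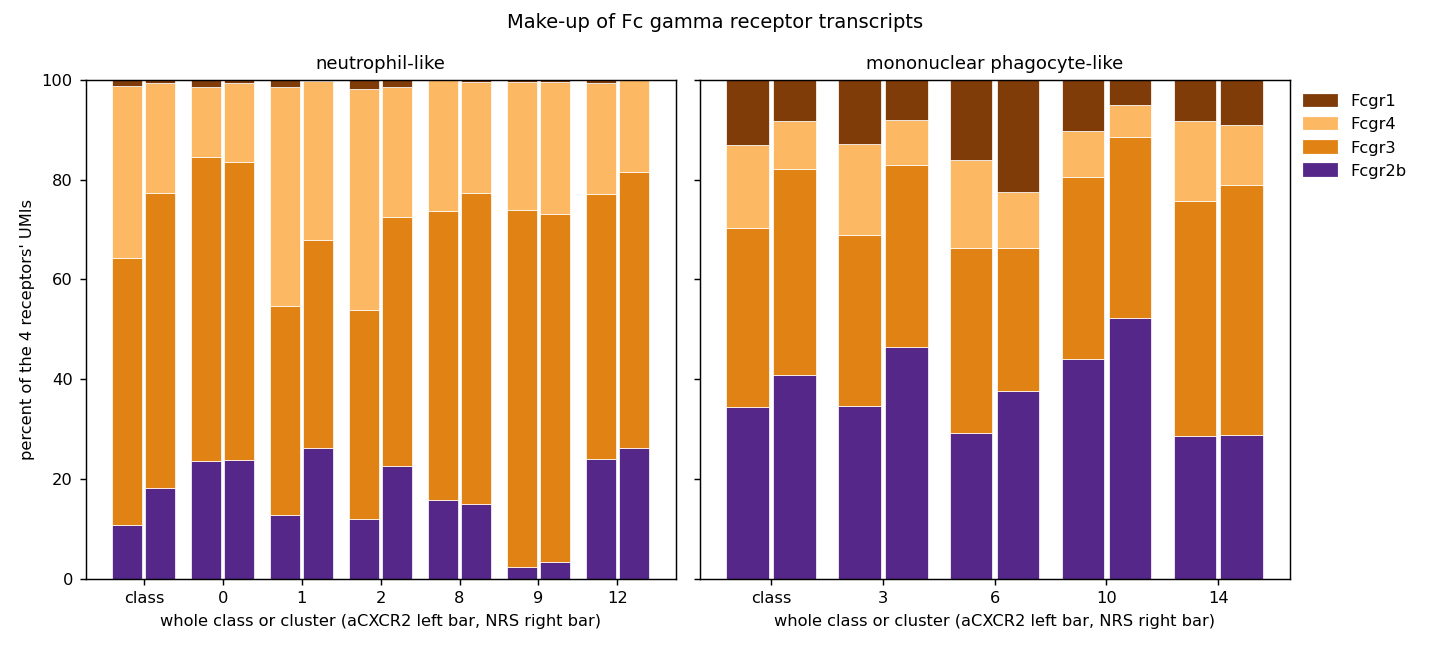
Percent of the UMIs of the 4 Fc gamma receptor genes that each contributes, in the whole class and in each cluster with at least 50 cells in each library, aCXCR2 bar left of NRS bar. The Fcgr2b part is smaller in aCXCR2 in both whole classes (10.7% against 18.3% in NRS, and 34.3% against 40.9%). It is nearly equal in clusters 0, 8 and 14.

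Set against all genes, the count of receptors past a 2-fold difference was as follows. Among genes with at least 50 CPM in a library, 4.22% passed 2-fold upwards and 19.4% downwards in aCXCR2 neutrophil-like cells. Of the 5 receptors at that level, Fpr1, Fpr2 and Fcgr4 were higher and none was lower, with a median log2 ratio of 1.09 against -0.49 over all 3197 genes. Among genes of mononuclear phagocyte-like cells 4.48% of genes were higher and 2.41% lower, and Fpr2, Fcgr1 and Fcgr4 of the 6 receptors were higher and none lower, with medians of 0.98 for the receptors and 0.12 for all 2858 genes. Over all kept cells 4.79% of genes were higher and 11.2% lower, and Fpr2, Fcgr1 and Fcgr4 were higher. TMM scaling factors, which centre the bulk of genes, raised every neutrophil-like log2 ratio by 0.71 and every all-cell ratio by 0.53 and moved mononuclear phagocyte-like ratios by -0.0045. In the neutrophil-like class 4 receptors were then past 2-fold, Fcgr3 in addition at 1.46, beside 15.8% of all genes, and over all cells 6 receptors were, beside 14.9% of all genes. With equal cluster mix 0 receptors were past 2-fold in neutrophil-like cells, without clusters 5 and 7, and 1, Fcgr4, in mononuclear phagocyte-like cells. In neutrophil-like cells 1 was left, Fcgr4, without cluster 0. The other class was also left with Fcgr4 alone, 1 receptor, without cluster 14 or with a stricter cell filter. The share of all genes past 2-fold was not computed with equal mix, left-out clusters or the stricter filter. Whether these falls are particular to the receptors is therefore not known.

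**Figure D5:**
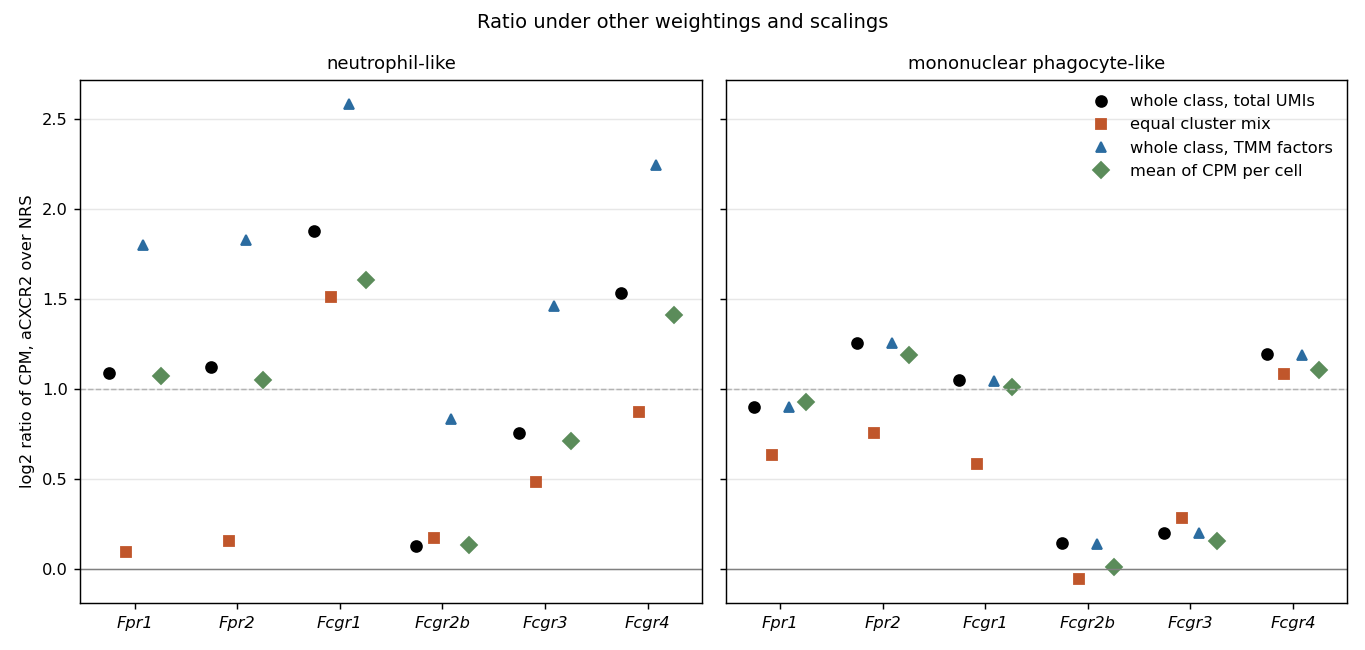
Log2 ratio of CPM, aCXCR2 over NRS, for each receptor in neutrophil-like (left) and mononuclear phagocyte-like cells (right), over the whole class with total-UMI scaling, with equal cluster mix, with TMM factors and as the mean of CPM per cell; the dashed line is 2-fold. In neutrophil-like cells the equal mix, without clusters 5 and 7, takes Fpr1 to 0.09 and Fpr2 to 0.16 while Fcgr4 remains at 0.87. TMM factors move all 6 up together.

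Per cell, and without scaling for depth, neutrophil-like cells held on average 6.42 Fpr1 UMIs in aCXCR2 and 1.66 in NRS, and 2.82 Fcgr4 UMIs in aCXCR2 and 0.536 in NRS. They held 6.08 Fpr2 UMIs in aCXCR2 and 1.54 in NRS, and 4.40 and 1.43 Fcgr3 UMIs. The deeper mononuclear phagocyte-like cells held 6.21 Fpr1 UMIs in aCXCR2 and 2.77 in NRS, and 7.715 and 2.69 Fpr2 UMIs. Mononuclear phagocyte-like cells, at median depths of 29997 UMIs in aCXCR2 and 23392 in NRS, held 23.8 Fcgr3 UMIs in aCXCR2 and 17.2 in NRS, and 10.98 Fcgr4 UMIs in aCXCR2 and 4 in NRS. Thinned to 1000 UMIs, 28.2% of aCXCR2 and 12.8% of NRS mononuclear phagocyte-like cells had an Fcgr4 UMI, and 24.3% and 13.3% had an Fcgr1 UMI. For Fcgr3 in neutrophil-like cells the thinned shares were 37.2% in aCXCR2 and 24.1% in NRS, against 87.3% and 57.8% without thinning. The thinned Fcgr2b shares of neutrophil-like cells were 7.95% in aCXCR2 and 8.11% in NRS, and no order is read from them, since the CPM ran the other way.

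Few cells showed many of the receptors at once after thinning to 1000 UMIs. Exactly 3 of the 6 were seen in 14.8% of aCXCR2 and 4.74% of NRS neutrophil-like cells, and 4 in 4.05% and 0.571%. None of the receptors was seen in 17.2% of aCXCR2 and 40.6% of NRS neutrophil-like cells. For mononuclear phagocyte-like cells none was seen in 10.7% of aCXCR2 and 21.8% of NRS cells, and in photoreceptor-like cells in 91.1% and 97.3%.

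Over 29 cluster-by-library units with at least 50 cells, the log2 levels of Fpr1 and Fpr2 ran together (Pearson r = 0.98), as did those of Fcgr3 and Fcgr4 (r = 0.94) and, less closely, of Fcgr1 and Fcgr2b (r = 0.83). Fpr1 and Fcgr1 had an r of 0.0016. The units include photoreceptor-like cluster 4 and unnamed clusters 11, 13 and 15. In those of clusters 4, 13 and 15 no receptor exceeded 35.6 CPM, and their part in the r values was not tested. Units of a library share depth and preparation, so the r values are descriptions. Among 7587 other genes, Gpr84, a receptor for medium-chain fatty acids, and Vasp, a regulator of actin filaments, were the closest in pattern to both Fpr1 (r = 0.98 and 0.97) and Fpr2 (0.98 and 0.96), followed by Lrrc25 for Fpr1 and Mcemp1 for Fpr2. Fcgr1 was most like Ms4a6c (0.98), which is among the markers that named the mononuclear phagocyte-like class, then Tifab and Lpxn. Fcgr2b was most like Cd38 (0.95), an enzyme that consumes NAD, then the chemerin receptor gene Cmklr1 and Man2a1. Fcgr3 was most like Nckap1l (0.96), a part of the actin-regulating WAVE complex, then Arap1 and Itgam. Fcgr4 was most like Pirb and Cyth4 (both 0.96) and then Itgam (0.95), which encodes the integrin chain CD11b.

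Serum amyloid A genes, which encode ligands of Fpr2, were higher in aCXCR2 in both classes. Of 5 listed ligand genes, all had at least 10 CPM in neutrophil-like cells and 4 were at least 1.5-fold higher in aCXCR2, where 6.83% of all 7381 genes at that level were higher and 51.3% lower. Saa3, a serum amyloid A gene, had 14936 CPM in aCXCR2 and 2103 CPM in NRS (log2 ratio 2.83), and Saa1 had 277 CPM in aCXCR2 and 6.51 CPM in NRS (5.41). The fourth gene past the fold was Saa2, at 21.7 CPM in aCXCR2 and 0.993 CPM in NRS, named after its value was seen. Photoreceptor-like cells had 542 CPM of Saa3 in aCXCR2 and 48.4 CPM in NRS, and the unnamed clusters together had 9400 CPM and 2426 CPM; the part of free RNA and doublets in the neutrophil-like Saa3 level was not tested. Anxa1, which encodes annexin A1, had 207 CPM in aCXCR2 and 116 CPM in NRS (0.83), whereas the cathelicidin gene Camp had 36.7 CPM in aCXCR2 and 54.9 CPM in NRS (-0.58). In mononuclear phagocyte-like cells Saa3 had 39576 CPM in aCXCR2 and 12069 CPM in NRS (1.71), Saa1 had 40.2 CPM in aCXCR2 and 17.9 CPM in NRS (1.17), and Anxa1 had 89.3 CPM in aCXCR2 and 86.5 CPM in NRS. The other genes of the receptor family, Fpr3, Fpr-rs3, Fpr-rs4, Fpr-rs6 and Fpr-rs7, did not reach 10 CPM in either class.

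Genes that couple the formyl peptide receptors to the cell mostly differed by less than 1.5-fold. Of 19 measured coupling genes in neutrophil-like cells, 1 was at least 1.5-fold higher and 2 lower, beside 6.83% and 51.3% of all genes, with a median log2 ratio of -0.05 against -0.61 over all genes. The GTPase gene Rac2 had 1563 CPM in aCXCR2 and 1133 CPM in NRS, and the inhibitory G protein gene Gnai2 had 1163 CPM in aCXCR2 and 922 CPM in NRS. The gene past the fold upwards was Pik3r6 (0.60) and those downwards were Gnb1 (-0.68) and Plcb2 (-1.07), which are named because they were few. Of 20 coupling genes in mononuclear phagocyte-like cells 1 was higher, Pik3r6 at 0.99, and none was lower, beside 7.57% and 5.82% of all genes. With TMM factors 11 of the 19 coupling genes in neutrophil-like cells were at least 1.5-fold higher, beside 23.2% of all genes.

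Of 14 measured genes of activating Fc gamma receptor signalling in neutrophil-like cells, 1 was at least 1.5-fold higher and 1 lower, beside 6.83% and 51.3% of all genes. Fcer1g, the shared gamma chain, had 4611 CPM in aCXCR2 and 5224 CPM in NRS (-0.18). The Src-family kinase gene Fgr had 394 CPM in aCXCR2 and 285 CPM in NRS (0.47), and the kinase gene Syk had 295 CPM in aCXCR2 and 268 CPM in NRS (0.14). The gene below the fold was the exchange factor gene Vav1 (-0.82), named after its value was seen. In mononuclear phagocyte-like cells 4 of 14 were higher and none lower, where 7.57% of 7591 genes were higher and 5.82% lower. Among the 4 higher genes were Fgr (0.82), Lcp2 (0.60) and Pik3cd (0.73), also named after their values were seen. Fcer1g had 3573 CPM in aCXCR2 and 2750 CPM in NRS there. Among inhibitory phosphatase genes, Inpp5d, which encodes the SHIP1 phosphatase recruited by Fcgr2b, had 94.9 CPM in aCXCR2 and 99.5 CPM in NRS neutrophil-like cells, and 116 CPM and 123 CPM in mononuclear phagocyte-like cells. In neutrophil-like cells 0 of 4 such genes were higher and 1, Ptpn11 (-0.64), was lower, and in the other class 0 of 5 moved past the fold. With TMM factors 11 of the 14 signalling genes in neutrophil-like cells were higher, beside 23.2% of all genes.

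Most other Fc receptor genes stayed under 10 CPM. Of 12 listed, 1 reached 10 CPM in neutrophil-like cells, the cytosolic antibody receptor gene Trim21, with 10.6 CPM in aCXCR2 and 7.23 CPM in NRS. The mononuclear phagocyte-like class had 3 genes at that level, and 2 of them were at least 1.5-fold lower in aCXCR2, beside 5.82% of all genes. They were Fcgrt, the neonatal Fc receptor, with 47.3 CPM in aCXCR2 and 82.1 CPM in NRS, and Fcrls, with 17.0 CPM in aCXCR2 and 82.4 CPM in NRS.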

How the data were processed

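Single-cell RNA was measured in 1 aCXCR2 and 1 NRS library, with 85748842 and 61386486 UMIs in all. Each deposited matrix gives raw UMI counts as whole numbers, and per the file headers it was written by software version 3.0.0. Cell Ranger and Seurat appear in the submitters' processing notes without versions, beside a human build, whereas the gene IDs are mouse.

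The 6 genes and all lists were chosen with earlier results of these data known. Cells were clustered in scanpy 1.11.5 with 2000 variable genes (the 6 left out), 30 components, 15 neighbours and Leiden resolution 1 (leidenalg 0.10.2), without library correction. Clusters were named from marker lists, by a scoring rule set after the data were seen. Scrublet, run per library, called 4 aCXCR2 and 0 NRS cells, so it has not worked and doublets remain.

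CPM are UMIs summed over the cells of a class and divided by that class's total. Intervals are exact Poisson (CPM), Clopper-Pearson (shares) and conditional (ratios). Ratios and their intervals were tested on simulated data. Named genes were the 6 receptors, up to 4 of the highest per list, and the 3 most alike per receptor by log2(CPM + 10); a gene that this rule names is not reported here. Alternatives changed the filter, clustering, weighting and scaling (TMM, edgeR 4.0.16). Another removed the 186 aCXCR2 and 256 NRS cells with the highest Scrublet scores. Python 3.11.15, numpy 2.4.6, scipy 1.17.1, pandas 2.3.3 and R 4.3.3 were used.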

Additional observations from a re-analysis of the deposited data

Results flagged for a closer look

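The barcodes that the cell filter left out, 725 in aCXCR2 and 1659 in NRS, enter no comparison above, yet they hold receptor UMIs, and all 6 genes stood higher in those of aCXCR2 than in those of NRS, with intervals that did not overlap. Fpr1 had 199.9 CPM in aCXCR2 and 32.0 CPM in NRS, and Fpr2 had 233 and 36.0 CPM. Fcgr1 had 61.5 CPM in aCXCR2 and 6.14 CPM in NRS, and Fcgr2b had 250.2 and 41.6 CPM. Fcgr3 had 251 CPM in aCXCR2 and 51.8 CPM in NRS, and Fcgr4 had 150.1 and 16.3 CPM. The median mitochondrial share was 47.0% in aCXCR2 and 24.0% in NRS, at median depths of 2160 and 3867 UMIs. The share of all genes that stood higher in this way was not computed, so nothing particular to the receptors is read from it. The cell types behind these barcodes were not tested. With 1 library per group, no group had enough samples to look for samples that stand apart.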

How the results depend on the processing

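No paired analysis was possible because each group was 1 library. Of the ratios, shares and counts recomputed under other settings, 308 stayed within counting error (gene counts within 1.5 times). Another 165 moved further, and 3 were labelled reversed. The 308 include runs with the 6 genes allowed as variable genes, where 0 were taken up and the classes did not change. They also include runs without the cells of highest Scrublet score. Since Scrublet did not work, these cannot show the part of doublets. Class ratios under 2-fold that changed sign count among the 165. Fcgr2b did so, at -0.01 in neutrophil-like cells without cluster 1 and -0.26 in mononuclear phagocyte-like cells without cluster 14. The 3 labelled reversals concern the Fcgr2b share of cells, as the difference aCXCR2 minus NRS. Near 0 in neutrophil-like cells, it was 1.76 points at 2000 UMIs and 0.781 expected over all draws. In mononuclear phagocyte-like cells it was -1.94 at 500 UMIs, so no order is read from it. Receptors at least 2-fold higher in neutrophil-like cells, 3 as reported, were 0 with equal cluster mix, 1 without cluster 0 and 1 with variable genes scaled (added after seeing the data). In mononuclear phagocyte-like cells they were 1 with the strict filter, 1 with equal mix and 1 without cluster 14, and over all cells 6 with TMM or median-of-ratios factors. Of these settings, the share of all genes past 2-fold was computed for TMM factors only. The Fcgr2b share of Fc gamma receptor UMIs in neutrophil-like cells was 14.9% in aCXCR2 and 19.2% in NRS with equal mix; in aCXCR2 9.81% without cluster 1 and 12.7% without cluster 5; in NRS 15.3% with genes scaled, 15.5% without cluster 0 and 17.2% without cluster 2. In mononuclear phagocyte-like cells it was 34.8% in aCXCR2 and 44.0% in NRS with equal mix, 33.9% and 38.0% without cluster 3, 32.6% and 37.3% without cluster 10, and 34.6% and 48.1% without cluster 14; in aCXCR2 it was 33.9% with the strict filter, 32.5% with libraries clustered separately and 36.3% without cluster 6. It stayed lower in aCXCR2 in all of these. The equal mix and left-out clusters for this share were added after seeing the data. Genes at least 2-fold apart in neutrophil-like cells were 505 higher and 76 lower with TMM factors, against 135 and 621; lower ones were 1312 from 20 CPM and 328 from 100 CPM. In mononuclear phagocyte-like cells lower genes were 133 from 20 CPM and 34 from 100 CPM, and higher ones 80 from 100 CPM. Over all cells the counts were 530 higher and 253 lower with TMM factors, 268 and 941 from 20 CPM, and 180 lower from 100 CPM. The cause was not tested.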
